A study of Mus musculus with 721 samples.

Results

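Aire, the autoimmune regulator, was followed from the inner cell mass (ICM) to the gastrulating epiblast in single cells of mouse embryos. It is 1 of the 24483 gene rows on chromosomes 1 to 19 that were analysed, and it was chosen by its own counts, which rose and fell with stage and lineage in these cells, so its levels by stage and lineage are described below and carry no test. The deposited table gives raw read counts for 721 hand-picked wells, taken at embryonic days E3.5 (99 wells), E4.5 (105), E5.5 (267) and E6.5 (250). By their titles they come from 37 embryos, 1 of which stands for 9 cells without an embryo number. The paper counts fewer embryos, so whether some of these units are the same embryo is not known. All embryos were wild type and of the C57Bl/6Babr strain, so genotype and strain are shared by every group, and stage and lineage are what differ between them. At E3.5 and E4.5 the trophectoderm had been removed by immunosurgery, and cells of E6.75 embryos are counted with E6.5. The replicate is the embryo as read from the titles. For each class of cells, the counts of an embryo with at least 3 such cells were summed and given as normalised CPM (counts divided by the library total in units of 1e6 and scaled with TMM factors).

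AIRE is best known from the medullary epithelium of the thymus, where it turns on genes that are otherwise restricted to peripheral tissues so that developing T cells meet those antigens, and its loss causes autoimmune polyendocrine disease. The protein carries a SAND domain and PHD fingers, the first of which reads unmodified histone tails, and works with partners that release paused polymerase, relax DNA and acetylate chromatin. In the thymus it is induced through the RANK and CD40 receptors and NF-kB. Outside the thymus, Aire RNA has been seen in pluripotent stem cells, germ cells and early embryos, where its role is less clear.

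The gene lies on chromosome 10 on the minus strand (ENSMUSG00000000731.15, chr10:78030022-78043610 in GRCm38), with 15 exon blocks that cover 3825 bases. Its 5′ end reaches into Dnmt3l (ENSMUSG00000000730.13, chr10:78041947-78063622, plus strand), the catalytically inactive partner of the de novo DNA methyltransferases. The annotated spans share 1664 bases, but only 67 exonic bases, which are 1.75% of the exonic bases of Aire and 2.24% of those of Dnmt3l. The library chemistry does not mark strand, so reads from those 67 bases cannot be told apart. The sequences upstream of both genes are shown because the pair sits head to head and both were detected in the same cells. Each runs 5′ to 3′ over the 250 bases before a RefSeq start site (GRCm38.p6). For Aire this is chr10:78043611-78043860 on the minus strand, which lies inside the Dnmt3l span, and for Dnmt3l it is chr10:78049592-78049841 on the plus strand, before 1 of several annotated starts. Capitals mark the motifs found.
Aire: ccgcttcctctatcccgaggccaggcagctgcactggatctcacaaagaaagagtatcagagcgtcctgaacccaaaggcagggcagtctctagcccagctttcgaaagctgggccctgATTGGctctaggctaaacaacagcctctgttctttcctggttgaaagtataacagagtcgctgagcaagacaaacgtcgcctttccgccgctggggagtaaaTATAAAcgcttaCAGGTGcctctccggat
Dnmt3l: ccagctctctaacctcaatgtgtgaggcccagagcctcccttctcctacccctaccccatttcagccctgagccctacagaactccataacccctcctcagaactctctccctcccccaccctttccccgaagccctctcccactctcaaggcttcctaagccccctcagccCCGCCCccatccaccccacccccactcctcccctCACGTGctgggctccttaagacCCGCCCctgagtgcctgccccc

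Short motifs were searched on both strands of these windows and of all 32851 promoters of the same length. Upstream of Aire, TATAAA lay at -29 to -24 from the start, CAGGTG at -17 to -12 and CCAAT, read on the other strand as ATTGG, at -131 to -127. Upstream of Dnmt3l, CACGTG lay at -44 to -39 and GGGCGG, read as CCGCCC, at -78 to -73 and at -22 to -17. Of all promoters, 12.4% held TATAAA, 17.2% CAGGTG, 33.9% CCAAT, 6.02% CACGTG and 32.7% GGGCGG, so the pair of windows had none of these letters in common and most of the letters are frequent. The octamer ATGCAAAT, held by 1.60% of promoters, was in neither window. The Aire window held 11 CpG sites and the Dnmt3l window 4, against a median of 6 over all promoters.

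Cells were clustered without Aire, its neighbours and the gene lists used below, and clusters were named from marker genes. At E4.5, 29 cells were epiblast-like and 76 were primitive endoderm (PrE)-like. The E5.5 cells fell into 259 epiblast-like and 8 endoderm-like ones. At E6.5 there were 189 epiblast-like cells, 23 cells like the primitive streak and 38 endoderm-like cells. Of the 189, 26 formed a cluster whose marker scores against the other E6.5 cells were all negative. They were -0.232 for epiblast, -0.466 for endoderm and -0.49 for streak, so its epiblast markers lay below those of the other cells and its name rests on the highest score only. E3.5 cells were kept as 1 class. Summed endoderm markers stood at 16217 to 25145 CPM in PrE-like sums and at 2003 to 5864 CPM in epiblast-like sums of the same E4.5 embryos. In epiblast-like sums they stood at 729 to 1048 CPM at E5.5 but at 749 to 8181 CPM at E6.5. By the test and limits given below with Dnmt3l, 13 of the 20 endoderm markers rose from E5.5 to E6.5, where 4.22% of all genes tested did. This endoderm marker level accompanies every E6.5 value below. Its part in them was not tested. All 10 trophoblast markers together stayed at or under 396 CPM in every sum. The paper had removed trophoblast cells by markers that include Elf5 and Wnt7b, which are among the 10, so this low level was partly set beforehand. Streak markers summed to 1246 CPM in the 1 streak-like sum and to 1294 CPM on average in E6.5 endoderm-like sums. Wells held 66896 to 3792936 counts (median 692863), and 128 of them were labelled as holding 2 cells.

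At E4.5, Aire was an epiblast transcript. The 5 epiblast-like sums stood at 336, 318, 193, 104 and 182 CPM for embryos 1 to 5, a mean of 227 ± 97.8 (SD, n = 5). PrE-like cells of the same embryos gave 6.51, 13.5, 0, 1.19 and 1.92 CPM, a mean of 4.63 ± 5.55 (SD, n = 5). In each of the 5 embryos the epiblast-like sum was the higher, and the groups did not overlap. Pooled over embryos, epiblast-like cells held 195 and PrE-like cells 2.71 CPM, a ratio of 71.9. Embryos 1 and 2, whose titles carry the code P1, were above the 3 embryos with code P2 in both lineages, and the labels do not say what the code stands for, so code and embryo cannot be told apart.

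In the E3.5 ICM, a day earlier, Aire was next to absent. Of 10 sums, 8 were at 0 and the highest was 0.126 CPM, with 2 counts in all 99 cells. The sums of epiblast-like cells at E5.5 were again high, with 99.5 and 83.7 CPM in embryos 7 and 8, 131 CPM in embryo 9, 57.8 and 116 CPM in embryos 1 and 2, and 141, 104 and 167 CPM in embryos 3, 4 and 6. The lowest E5.5 embryo was above the highest PrE-like sum of E4.5. The mean was 113 ± 34.3 CPM (SD, n = 8).

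A day after, at E6.5, Aire was next to undetected. Of 13 epiblast-like sums, 12 had no Aire count and 1 stood at 0.316 CPM. The streak-like sum and all 7 endoderm-like sums were at 0, as was the only endoderm-like sum at E5.5. Pooled E5.5 epiblast-like cells held at least 543-fold more Aire than E6.5 streak-like and at least 1440-fold more than E6.5 endoderm-like cells, taking 3 counts over each group as the limit. Against E6.5 epiblast-like cells the ratio was 4213, on 4 counts.

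**Figure D1:**
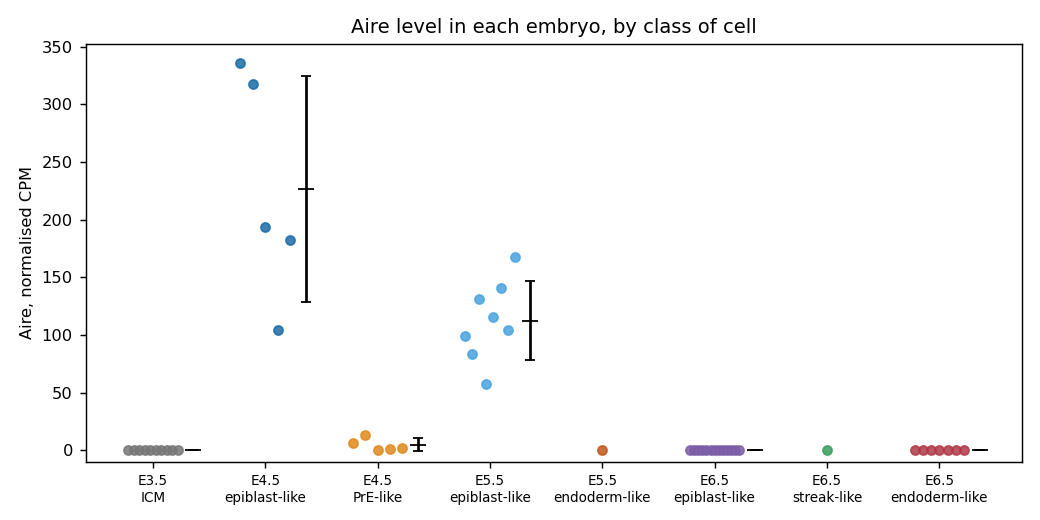
Aire in normalised CPM (linear axis) for each class of cells, with 1 point per embryo and the mean and SD in black. Only epiblast-like sums of E4.5 and E5.5 rise above 14 CPM, and their ranges overlap.

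By mean level the order was E4.5 epiblast-like, E5.5 epiblast-like, E4.5 PrE-like, then E6.5 epiblast-like and E3.5. The E4.5 and E5.5 epiblast means differed 2.01-fold, but their ranges overlapped, since 5 of the 8 E5.5 embryos lay above the lowest E4.5 embryo. Within code P1, embryos 1 and 2 at E4.5 (336 and 318 CPM) stood above embryo 9 at E5.5 (131 CPM). The median cell of that embryo 9 stood at 35.9 CPM and its highest at 1263 CPM. The E4.5 embryos of code P2 (193, 104 and 182 CPM) overlapped the E5.5 embryos of code P2.P3 (57.8 and 116 CPM). The E5.5 epiblast-like and E4.5 PrE-like sums did not overlap. E6.5 epiblast-like and E3.5 sums, nearly all at 0, could not be ordered at this depth.

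Detection per cell followed the levels. At least 1 Aire count was found in 27 of 29 epiblast-like cells at E4.5, 93.1% (95% exact binomial interval 77.2 to 99.2%), and in 80 to 100% of those of single embryos. At E5.5 it was found in 208 of 259 epiblast-like cells, 80.3% (74.9 to 84.97%), with 60 to 93.3% by embryo. The intervals treat cells as independent and cover counting error only, not the spread between embryos.

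The other classes had few such cells. In PrE-like cells Aire was found in 11 of 76, 14.5% (7.45 to 24.4%), and the embryos gave 25, 16.7, 0, 7.41 and 23.5%. At E3.5 it was found in 2 of 99 cells, 2.02% (0.246 to 7.11%), with 1 count each, and at E6.5 in 1 of 189 epiblast-like cells, 0.529%, with 4 counts. None of 23 streak-like and none of 38 endoderm-like cells at E6.5 had a count, which allows shares of up to 13.04% and 7.89% with 3 cells taken as the limit, and up to 14.8% and 9.25% by the exact interval. With every cell thinned to 300000 counts, which leaves out 46 cells, the shares were 91.5% in E4.5 epiblast-like, 77.9% in E5.5 epiblast-like and 12.0% in PrE-like cells, so depth did not change the order.

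**Figure D2:**
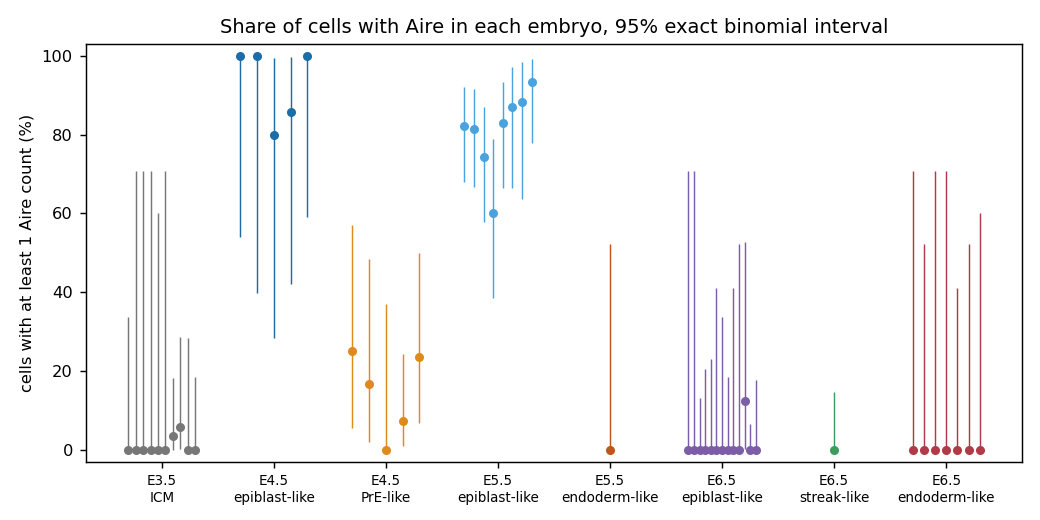
Share of cells with at least 1 Aire count (percent) in each embryo, by class, with 95% exact binomial intervals for counting error. Epiblast-like embryos of E4.5 and E5.5 lie between 60 and 100%, and PrE-like embryos at or under 25%.

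Among the cells of an epiblast, the amount of Aire varied widely. At E4.5, 22 of 29 epiblast-like cells held 100 CPM or more, with a median of 222 and a maximum of 623 CPM. At E5.5, 51 of 259 held none, 11 held under 10 CPM, 77 held 10 to under 100 CPM and 120 held 100 CPM or more. The E5.5 quartiles were 14.1, 89.9 and 175 CPM, and the highest cell reached 1263 CPM. The 25 highest of the E5.5 cells carried 31.0% of the summed level. E5.5 cells without Aire had a median total of 837493 counts against 755523.5 in cells with it, and a median of 6259 detected genes against 6563. The part of either in the detection of Aire was not tested.

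The squared coefficient of variation over E5.5 epiblast-like cells was 1.27. It was 0.721 at the median of the 200 genes nearest in mean level, of which 190 were lower than Aire. Those genes were detected in 92.7% of the cells at the median, more often than Aire. The value for Aire pools embryos whose sums ran from 57.8 to 167 CPM and includes the highest well, at 1263 CPM. It was not computed without that well. Epiblast markers summed to a median of 5858 CPM in E5.5 cells with Aire and 5588 CPM in those without, and endoderm markers to 897 and 846 CPM, so the medians of both kinds of cell lay close together.

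**Figure D3:**
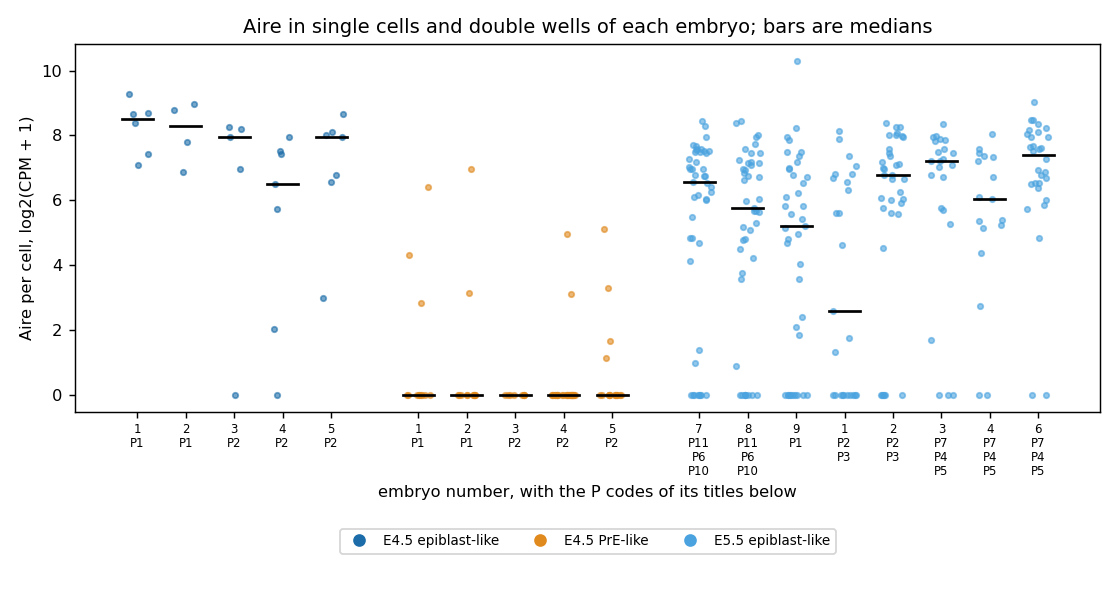
Aire in each well as log2(CPM + 1) for epiblast-like cells of E4.5 and E5.5 and PrE-like cells of E4.5, with 1 point per well and the median of each embryo as a bar. Every E5.5 embryo holds wells at 0 beside wells near 8, and the median of each PrE-like embryo is 0.

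Cells labelled double or single gave a comparison that the choice of the gene did not use. In the 6 E5.5 embryos with enough wells of both kinds, the mean of log2(CPM + 1) was 0.63 ± 1.17 (SD) higher in double wells, and it was higher in 4 of the 6. This difference did not pass an exact two-sided sign-flip permutation test (p = 0.25, where 0.03125 is the smallest that 6 embryos allow). By title code, Aire was found in 74.4% of E5.5 epiblast-like cells of P1, 81.8% of P11.P6.P10, 73.3% of P2.P3 and 87.5% of P7.P4.P5. The 259 cells came from 2 clusters, in which Aire was found in 26 of 27 and in 182 of 232 cells.

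The PrE-like cells with Aire were endoderm cells by their markers. Their endoderm markers summed to a median of 19590 CPM, against 19804 CPM in PrE-like cells without Aire, and their epiblast markers to 1285 against 1513 CPM. Double wells made up 2 of the 11 with Aire and 28 of the 65 without. Only 1 of the 76 held 100 CPM or more, at 123 CPM. At E5.5, 1 of 8 endoderm-like wells had Aire (32.2 CPM), and it was labelled double.

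Dnmt3l, the head-to-head partner, followed a broader course than Aire. For Dnmt3l and the genes below, sums were compared with edgeR's quasi-likelihood test, adjusted by Benjamini-Hochberg over all genes tested, and a call needed an adjusted p of 0.05 or less with a log2 fold change over 1 between stages, or over 2 between the E4.5 lineages. Epiblast-like sums of E4.5 embryos 1 to 5 held 587, 611, 590, 338 and 947 CPM of Dnmt3l. PrE-like sums of the same embryos held 345, 239, 295, 116 and 244 CPM. At E3.5, 5 sums of code P8 held 2.81 to 15.5 CPM, 4 of code P9 held 21.5 to 75.4 CPM and the group without embryo numbers held 4.86 CPM. All 5 E4.5 epiblast-like sums were above all 10 at E3.5 (log2 fold change 4.83, SE 0.97, edgeR adjusted p = 2.7e-04). The lineages at E4.5 differed by a log2 fold change of -1.28 (SE 0.31, adjusted p = 0.013), short of the limit of 2, whereas Aire was nearly absent from PrE-like cells.

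The 8 E5.5 epiblast-like sums of Dnmt3l ranged from 71.9 to 205 CPM, all below the lowest at E4.5, although the change did not pass the test (log2 fold change -2.50, SE 0.98, edgeR adjusted p = 0.12). At E6.5, 12 of the 13 sums were at or under 30.6 CPM, a mean of 7.87 ± 9.16, and the embryo 9 of code P3 stood at 288 CPM. In that embryo 1 well of 3451994 counts and only 4039 detected genes held 1495 Dnmt3l counts and no Aire, while the other cells held 3 Dnmt3l counts. Endoderm markers summed to 6496 CPM in that well, epiblast markers to 2204 CPM and trophoblast markers to 77.9 CPM, although its class was epiblast-like. With that embryo the drop from E5.5 did not pass (log2 fold change -1.86, SE 0.77, edgeR adjusted p = 0.12), and without it, an alternative added after the values were seen, it did (-3.80, adjusted p = 3.7e-05). An alternative fit with a replicate block kept that embryo, and there the drop passed (-3.63, SE 0.77, edgeR adjusted p = 1.8e-03). Between stages that block joins embryos that share only a number, so it cannot decide whether the drop holds with that embryo kept.

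Per kilobase of exon, the pair were closest at E5.5. Dnmt3l stood above Aire in all 5 E4.5 epiblasts, at 206 ± 72.6 against 59.2 ± 25.6 CPM per kb (SD, n = 5), or 2.24 to 6.65 times. At E5.5 the levels were 36.9 ± 14.6 and 29.4 ± 8.96 CPM per kb (SD, n = 8), with Dnmt3l the higher in 5 embryos and Aire in 3. In PrE-like cells Dnmt3l held 82.9 and Aire 1.21 CPM per kb. Cell by cell, 185 of the 259 E5.5 epiblast-like cells had counts of both genes, 45 of Dnmt3l alone, 23 of Aire alone and 6 of neither, while 62 of the 76 PrE-like cells had Dnmt3l without Aire.

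**Figure D4:**
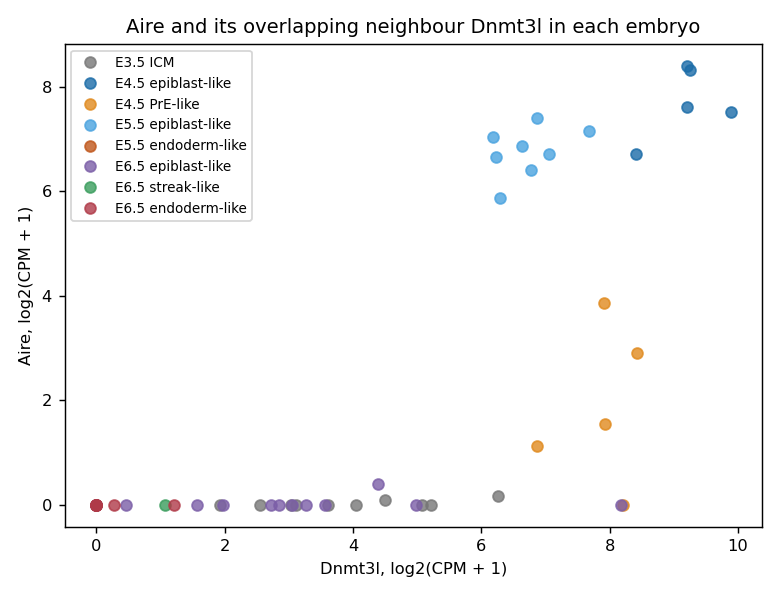
Aire against Dnmt3l in each sum, both as log2(CPM + 1), coloured by class. PrE-like sums lie far to the right at a low Aire level, while epiblast-like sums of E4.5 and E5.5 are high in both genes.

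The genes around Aire moved in several ways. Of 18 other rows that start within 250 kb of Aire, 13 had counts and 11 were tested. From E3.5 to E4.5 epiblast-like cells 4 of the 11 rose and none fell, where 20.9% of all 13422 genes tested passed (13.4% higher and 7.54% lower). They were Dnmt3l, the liver-type phosphofructokinase gene Pfkl, Icosl, which encodes a T cell costimulatory ligand, and the acyltransferase gene Agpat3. From E4.5 to E5.5, 2 rose (background 6.56%, with 3.58% higher and 2.97% lower), and these were Lrrc3 and C330046G03Rik. Both had no count in the E3.5 and E4.5 epiblast sums and stood at 3.62 ± 2.03 and 12.5 ± 6.40 CPM (SD, n = 8) at E5.5.

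From E5.5 to E6.5 none of the 11 passed by edgeR, 4 had an unadjusted p under 0.05 and DESeq2 called 1 (background 8.87%, with 4.22% higher and 4.66% lower). When the 26 cells of the E6.5 epiblast-like cluster with the lowest epiblast score were left out, an alternative added after the values were seen, 2 fell. Between PrE-like and epiblast-like cells at E4.5 only Pfkl passed (log2 fold change 2.06, SE 0.33, edgeR adjusted p = 8.5e-04), and it was higher in PrE (background 9.01%, with 5.32% higher and 3.70% lower). Pfkl held 79.5 to 233 CPM in E4.5 epiblasts, 369 to 534 CPM at E5.5 and 108 to 374 CPM at E6.5, so this neighbour stayed on when Aire was lost.

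**Figure D5:**
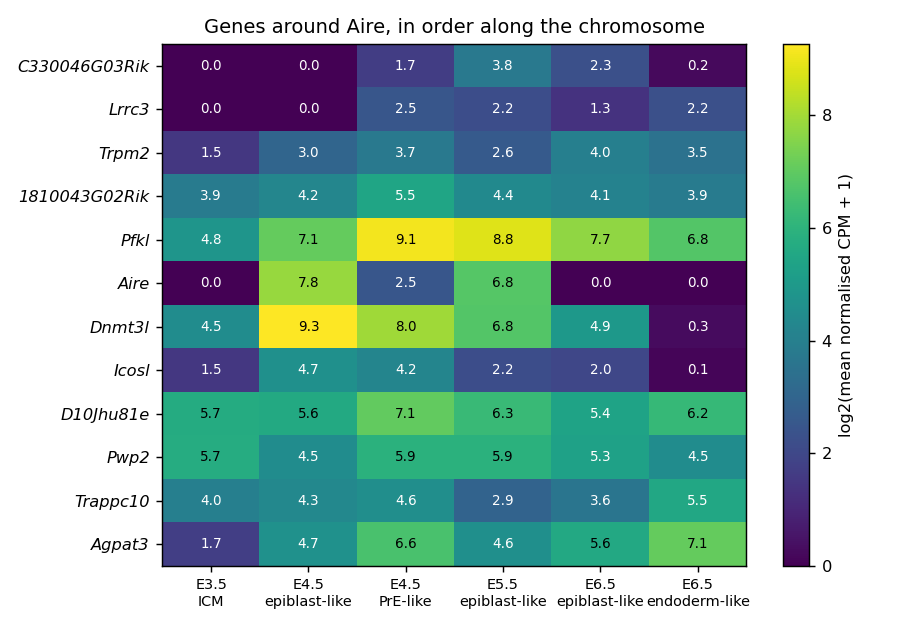
Mean normalised CPM, as log2(CPM + 1), of Aire and 11 neighbours (rows, in order along the chromosome) in each class (columns). Rows are to be read across, since levels are not per length. Aire is high in the epiblast-like classes of E4.5 and E5.5 and low elsewhere, while Pfkl has signal in every class.

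Genes that act upstream of Aire in the thymus ranged on average from 0 to 38.9 CPM in E4.5 and E5.5 epiblast-like sums. Of 24 listed receptors, kinases and factors upstream of Aire, 22 had a count and 17 were tested. Tnfrsf11a, which encodes the RANK receptor, stood at 0 in E4.5 and 0.207 CPM in E5.5 epiblast-like cells. The noncanonical NF-kB kinase gene Map3k14 stood at 0 and 0.316 CPM. Higher members were the IKK kinase gene Chuk (36.5 and 33.5 CPM), the adaptor genes Traf2 (16.7 and 38.9 CPM) and Traf3 (16.7 and 10.9 CPM), the NF-kB subunit gene Relb (15.7 and 4.91 CPM) and Tcf7 (5.81 and 30.0 CPM). From E3.5 to E4.5 4 rose, namely Cd40, Nfkb1, Tbx21 and Ets1, with means at E4.5 of 1.44, 1.60, 1.90 and 0.651 CPM. Over all genes 13.4% rose, and DESeq2 called 2 of this list. From E4.5 to E5.5 none passed by edgeR or DESeq2, and 3 had an unadjusted p under 0.05, where 6.56% of all genes passed by edgeR. From E5.5 to E6.5 Tbx21 alone fell, from 2.02 to 0.018 CPM (log2 fold change -5.77, SE 1.35, edgeR adjusted p = 4.1e-03), where 4.66% of all genes fell. DESeq2 did not call Tbx21, and it was too low to be tested without the 26 cells. Ltbr, the lymphotoxin beta receptor, was higher in PrE-like cells (14.9 against 0.50 CPM, log2 fold change 4.86, SE 1.37, edgeR adjusted p = 0.027), a call lost without any 1 of embryos 1, 2, 4 and 5.

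Several of 19 listed markers of thymic epithelium, which are not all particular to its medulla, were at or near 0. Foxn1, the master factor of thymic epithelium, had no count in the sums of E3.5 or in the epiblast-like sums of E4.5 and E5.5, Ciita, Krt5 and Ccl19 had none in the epiblast-like sums of E4.5 and E5.5, and Fezf2 averaged 0.065 CPM at E5.5. All 19 markers summed to 1.18 to 30.8 CPM in E4.5 and 1.25 to 18.5 CPM in E5.5 epiblasts, with H2-Eb1 at 3.65 and 1.86 CPM on average. Only 3 of the 19 were tested between stages. Of these Ly75, an endocytic receptor, rose from E3.5 (0.020 CPM) to E4.5 (11.3 CPM, 0 to 29.6 by embryo), where 13.4% of all genes rose. The 19 together averaged 15.0 CPM in E4.5 epiblast-like sums, most of it from Ly75.

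Cofactors of AIRE were found at every stage, and the shares called were near or below those of all genes tested. All 31 listed partners with a row had counts and were tested. From E3.5 to E4.5 2 rose and 3 fell (20.9% of all genes passed). The Ku subunit gene Xrcc5 went from 43.5 to 151 CPM (log2 fold change 1.80, SE 0.47, edgeR adjusted p = 4.5e-03) and the deacetylase gene Sirt1 from 12.6 to 76.1 CPM. Top1, which encodes DNA topoisomerase I, fell by 1.08 on the log2 scale (SE 0.24, edgeR adjusted p = 9.4e-04), H2afx, which encodes a histone variant of DNA repair, fell by 1.02 and the F-box gene Fbxo3 fell by 1.43. Top1 alone rose again to E5.5 (log2 fold change 1.16, SE 0.25, edgeR adjusted p = 2.4e-03), where 6.56% of all genes passed and the median over all genes tested was 0.14. From E5.5 to E6.5, Supt16h, a subunit of the FACT histone chaperone, rose from 276 to 959 CPM (log2 fold change 1.81, SE 0.33, edgeR adjusted p = 1.8e-04), and Prkdc, the DNA-dependent protein kinase, fell from 59.9 to 11.7 CPM (-2.36, SE 0.79, adjusted p = 0.045), the latter not without the 26 cells (8.87% of all genes passed). None of the 31 passed between the E4.5 lineages by edgeR or DESeq2, and 10 had an unadjusted p under 0.05, where 9.01% of all genes passed by edgeR. The acetyltransferase genes Crebbp and Ep300 did not pass in any comparison, with 58.4 and 105 CPM at E4.5 and 43.3 and 91.0 CPM at E5.5.

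Other SAND domain genes rarely passed in these comparisons. Of 6 relatives, Sp100, Sp110, Sp140, Deaf1, Gmeb1 and Gmeb2, 5 were tested between stages and 3 between the E4.5 lineages. Only Sp110 passed, at a low level, from E5.5 to E6.5 (0.707 to 0.011 CPM, log2 fold change -4.91, SE 1.23, edgeR adjusted p = 5.7e-03). Over all genes 20.9%, 6.56% and 8.87% passed in the successive stage steps, and 9.01% between the lineages. Deaf1, a transcription factor with the same DNA-binding fold, held 13.7, 19.7, 27.1 and 15.1 CPM from E3.5 to E6.5 in the epiblast line. Gmeb1 held 24.9, 26.9, 19.6 and 26.6 CPM.

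Of 16 genes known as AIRE-dependent antigens in the thymus, 12 had a count somewhere. Between stages 2 were tested, and between the E4.5 lineages 1. The insulin gene Ins2, the somatostatin gene Sst, Ppy, Spt1, Mup1, Mup4, Tff3 and Rbp3 were at 0 in the epiblast-like sums. The gastric mucin gene Muc6, too low to be tested between stages, averaged 0 CPM at E3.5, 7.58 CPM (0 to 16.4) in E4.5 epiblast-like, 1.68 CPM in PrE-like and 0.154 CPM in E5.5 epiblast-like sums. Its difference between the E4.5 lineages was tested and did not pass (log2 fold change -2.10, SE 1.47, edgeR adjusted p = 0.38). Mup6, a major urinary protein, had no count at E3.5 and 0 to 2.36 CPM at E4.5, and then stood at 22.3 to 125 CPM in the 8 E5.5 sums and at 0 to 25.2 CPM at E6.5. Its E5.5 sums were above all E4.5 sums (log2 fold change 7.22, SE 1.28, edgeR adjusted p = 4.3e-04), and it fell to E6.5 (-2.29, SE 0.67, adjusted p = 0.022). Major urinary proteins are a family of near-identical copies, so the assignment of these reads to Mup6 is uncertain. The testis fatty acid binding protein gene Fabp9 went from 2.20 CPM at E3.5 to 0 at E4.5.

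Naive pluripotency genes fell across the days when Aire was high. Of 13 naive genes, 2 fell from E3.5 to E4.5, 11 fell from E4.5 to E5.5 and 4 rose and 5 fell to E6.5 (3 and 6 without the 26 cells). Over all genes 7.54%, 2.97% and 4.66% fell in these steps, and 4.22% rose to E6.5. DESeq2 called 6 naive genes from E3.5 to E4.5. Nanog held 89.4 to 134 CPM in the E4.5 and 4.18 to 19.7 CPM in the E5.5 epiblasts (log2 fold change -3.44, SE 0.58, edgeR adjusted p = 1.2e-04). The orphan receptor gene Esrrb went from 96.4 to 1.03 CPM on average. Aire was thus high on both sides of this change.

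Of 13 formative genes, 8 rose from E3.5 to E4.5 and 3 rose and 1 fell from E4.5 to E5.5, where over all genes 13.4% rose in the first step and 3.58% rose and 2.97% fell in the next. Those that rose from E4.5 to E5.5 were Dnmt3b, Sall2 and Lin28b. The POU factor gene Pou3f1 had 0.833 to 43.1 CPM at E4.5 and 80.0 to 151 CPM at E5.5, a change that did not pass (log2 fold change 2.81, SE 0.92, edgeR adjusted p = 0.054). Otx2 went from 7.16 CPM at E3.5 to 111 CPM at E4.5 (log2 fold change 3.91, SE 0.59, edgeR adjusted p = 3.7e-06). To E6.5, 3 rose and 1 fell (2 and 2 without the 26 cells), where over all genes 4.22% rose and 4.66% fell. Pou3f1 averaged 106 CPM at E6.5, where 12 of 13 sums had no Aire count. In PrE-like cells 6 naive genes, 3 formative genes and Sox2 were lower than in the epiblast, and no gene of the naive, formative and core lists was called higher. In this comparison 12 naive, 9 formative and 3 core genes were tested. Over all genes tested 3.70% were lower and 5.32% higher in PrE-like cells.

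Of 8 genes of DNA methylation, 4 rose from E3.5 to E4.5, namely Dnmt3l, the de novo enzymes Dnmt3a (log2 fold change 3.21, SE 0.42) and Dnmt3b (3.66, SE 0.29) and the maintenance enzyme Dnmt1 (1.31, SE 0.38), against 13.4% of all genes that rose. From E4.5 to E5.5 Dnmt3b rose further (2.53, SE 0.34), to 2515 CPM, while the dioxygenase gene Tet1 fell by 1.14 on the log2 scale and Tet2 fell by 5.36. In this step 3.58% of all genes rose and 2.97% fell. From E5.5 to E6.5 Dnmt3a fell by 1.59 on the log2 scale, where 4.66% of all genes fell, and Dnmt3b averaged 2101 CPM.

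Within the E5.5 epiblast, no gene tracked Aire closely from cell to cell. Spearman's rho with Aire was taken within each of 8 embryos (17 to 45 cells each, 257 in all) for 8703 genes found in at least 25% of cells, and averaged. These values describe single wells that share an embryo and a library preparation, and no test was made. Mean rho was over 0.2 for 27 genes and over 0.3 for 0, and under -0.2 for 12. Only 56 genes, 0.643%, were positive in all 8 embryos and 37, 0.425%, negative in all. How many would share a sign by chance was not computed, so these counts do not show consistency. Against the total count of a well, Aire had a mean rho of -0.022.

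Genes were named by 1 rule, the highest mean rho among those positive in all 8 embryos and the lowest among those negative in all, so genes of a higher mean with 1 or more embryos below 0 are passed over. Of the 15 picked in this way the leading ones were Gm12868 (mean rho 0.27, 0.14 to 0.38 by embryo), the Cdc42 effector gene Cdc42ep5 (0.24), the glucose transporter gene Slc2a1 (0.24, 0.08 to 0.39) and AL591129.1 (0.23). Gm12868 and Slc2a1 are neighbours on chromosome 4, with starts at 119133749 and 119108711. Next came Chchd10, which encodes a mitochondrial intermembrane protein (0.23, 0.02 to 0.44), the interferon-inducible GTPase gene Irgm1 (0.22), Gm2a, Gstp1, Plekhg5, the metallothionein gene Mt2, Socs6, Tle4, Pld3 and Drg2 (0.18). At the other end stood the mitochondrial ribosomal protein gene Mrpl20 (-0.26), the ubiquitin ligase gene Herc2, the splicing factor gene Sf3a2, Uba6 and Strn3. In the 29 E4.5 epiblast-like cells, 10 of the 15 were positive as well, where 65.03% of all genes were. The ranking was loose, since 1 of the 15 was picked again in single wells and 4 with Pearson's r.

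None of the listed genes was positive in all 8 embryos. Dnmt3l had a mean rho of 0.15 (-0.09 to 0.42) and C330046G03Rik of 0.16 (-0.27 to 0.30), both positive in 7 embryos. Among partners the range was -0.18 (Supt16h) to 0.14 (Fbxo3), among formative genes the highest was Lef1 at 0.14, and among naive genes Fgf4 at 0.13. The presumed antigen Mup6 had -0.02.

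Across the 50 sums of all classes, the genes most like Aire were the meiotic cohesin gene Smc1b (Pearson's r 0.90 on log2(CPM + 1), over 9881 genes), Gm8909 (0.86), Gm13227 (0.86), the latent TGF-beta binding protein gene Ltbp4 (0.85), Chchd10 (0.84), Tmem40 (0.83), the meiotic HORMA domain gene Hormad1 (0.83), the testis tubulin gene Tuba3a (0.82), Sap25 (0.82) and Rex2 (0.82). They were chosen for this likeness, the sums of 1 embryo share their source, and no test was made.

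Smc1b averaged 0.145 CPM at E3.5, 84.8 ± 60.3 in E4.5 epiblast-like, 2.73 in PrE-like, 22.9 ± 19.5 in E5.5 and 0.824 CPM in E6.5 epiblast-like sums. Hormad1 held 20.7 to 263 CPM at E4.5, 33.0 to 314 CPM at E5.5 and 0 to 13.1 CPM at E6.5, and its PrE-like sums (3.11 to 70.7 CPM) overlapped those of the E4.5 epiblast, unlike Aire. Both genes were higher on average at E4.5 and E5.5 in the epiblast than at E3.5 and E6.5. Chchd10, the 1 gene that was also among the 15 within embryos, did not fall to 0 anywhere, with 697 to 823 CPM in E4.5 epiblasts, 145 CPM on average in PrE-like cells, 381 to 714 CPM at E5.5 and 71.7 to 220 CPM at E6.5. Dnmt3l ranked 38 in likeness (r 0.72).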

How the data were processed

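The authors isolated single cells by hand, amplified RNA by a plate protocol without molecular identifiers, trimmed reads with Trim Galore (0.4.3 per the submitters' processing notes), aligned them with HISAT2 (2.0.5) to GRCm38, kept mapping qualities of at least 20 and counted reads on genes in SeqMonk. They kept cells with at least 4000 genes and removed cells identified as trophoblast by marker genes. What was deposited are unnormalised whole-number counts. Embryos, stages, codes and single or double wells came from the titles and fields, and 9 E3.5 cells without an embryo number formed 1 group. Cells were clustered in Python 3.11.15 (scikit-learn 1.9.0) by consensus k-means, into 8 clusters over all cells and 5 at E6.5. E6.5 clusters were named by their marker score against clusters of the same stage, a step changed after a first naming called nearly all of them streak-like. Sums of at least 3 cells were tested with edgeR 4.0.16 (TMM factors, filterByExpr and the quasi-likelihood F test, with Benjamini-Hochberg adjustment) in R 4.3.3. Stages shared 1 fit, and the E4.5 lineages had their own. Lists, markers, the 15 genes highest in mean rho among those positive in all 8 embryos, the 5 lowest among those negative in all and the 10 genes most alike were named by rule (1 of the 15 is not reported here), and these rules and Aire itself were chosen with earlier results of these data known. The scripts were tested on simulated data. E4.5 sums of both lineages come from the same embryos (correlation of deviations 0.035 to 0.147), whereas between stages embryos share only a number. Alternatives were DESeq2 1.42.0, RLE scaling, no filter, single wells, other minimum cells, Ward clustering, a replicate block, thinning and leaving out embryos.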

Additional observations from a re-analysis of the deposited data

Results flagged for a closer look

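Dixon's criterion for a sample apart from the rest of its group was applied to Aire and Dnmt3l in 13 groups of 4 to 10 sums, and chance alone flags about 1 group in 20. It marked no Aire value and 3 of Dnmt3l, the overlapping neighbour of Aire. At E3.5, embryo 7 of code P9 stood at 75.4 CPM, far above the other 9 sums. At E5.5, embryo 3 of code P7.P4.P5 stood at 205 CPM (204.6 before rounding), and its Aire level of 141 CPM was within the range of the other embryos. At E6.5, embryo 2 of code P1 stood at 1.32 CPM in endoderm-like cells, where the other sums were lower.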

How the results depend on the processing

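The mean Aire level ranged from 200 to 258 CPM in E4.5 and from 99.2 to 113 CPM in E5.5 epiblast-like cells over all alternatives. The E5.5 endoderm-like level was 6.32 CPM with sums of at least 1 cell. At 10 CPM as the limit, shares of cells with Aire were 0% at E3.5, 6.58% in PrE-like and 0% in E6.5 epiblast-like cells, and the E5.5 endoderm-like share was 0% after thinning and in single wells. Of the 15 genes highest in mean rho among those positive in every embryo, 1 stayed in single wells, 4 with Pearson's r, 7 with depth regressed out and 6 to 10 when an embryo was left out. Of the 10 genes most alike, Spearman's rho kept 4 and epiblast sums alone 6.

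Genes called numbered 2808, 880, 1191 and 912 for E4.5, E5.5 and E6.5 against the stage before and for PrE-like against epiblast-like cells. Without a filter on low counts E6.5 gave 3056, and leaving out 1 E4.5 embryo gave 2356 to 2550, 595 to 729, 1256 to 1307 and 743 to 890. Over 1111 alternatives of 84 calls of named genes, 1019 were unchanged, 87 were lost, 4 were gained and 1 turned, which was Prdm14, E5.5 against E4.5, without E4.5 embryo 3 (log2 fold change 0.65, edgeR adjusted p = 0.92, against -5.27 to -5.17 without the others). Calls from E3.5 to E4.5 that did not survive the loss of 1 E4.5 embryo were those of Cd40, Dnmt1, Ets1, Fabp9, Fbxo3, H2afx, Icosl, Mup6, Sirt1, Top1 and Xrcc5. The same was true of Lrrc3 and Tet1 from E4.5 to E5.5, of Fgf5 to E6.5, and of Ltbr, Pfkl and Tfcp2l1 between the lineages. With the replicate block, 2205, 689, 1111 and 1029 genes were called. At E4.5 this block is the embryo itself, while between stages the embryos share only a number. 46 cells under 300000 counts and 5 epiblasts at E4.5 limit what can be told at low levels, and classes with 1 or 2 counts are at the limit of this depth.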
